A study of Mus musculus with 6 samples.

Results

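Histones are the proteins that package DNA into nucleosomes, and the values below describe their transcripts in splenic T cell preparations of mice that lack miR-142. The members were the array probe sets that the platform annotation assigns to exactly 1 gene and whose gene symbol marks a histone of the H1, H2A, H2B, H3 or H4 families (symbols that begin with H1f, H2ac, H2bc, H2az, H2ax, H3c, H3f or H4c, or with the older Hist forms). The rule found 25 of 45037 probe sets, which stand for 18 of 18193 genes. Of these genes 9 are replication-dependent histones and 9 are variants, 6 of them somatic and 3 linker histones of the germ line. No H4 gene had a probe set of its own. All 25 probe sets entered the test, since no filter on low values was set.

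Each array holds splenic T cells that had been purified, by negative selection, out of the spleen of 1 male C57BL/6 mouse 10 weeks old. The 3 KO arrays came from miR-142 KO mice and the 3 WT arrays from their WT littermates, and neither group received a treatment according to the labels. The labels do not state the allele or the cells in which it is deleted. Amplified RNA was hybridized to Affymetrix 1-colour arrays, and the values are log2 probe-set intensities.

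Replication-dependent histone genes lie in clusters, have no introns and are transcribed in S phase, when new DNA must be packaged. Their mRNAs end in a stem-loop in place of a poly(A) tail, and the protein encoded by Slbp binds that stem-loop. Variant histone genes mostly give polyadenylated mRNA throughout the cell cycle, and their proteins mark promoters, damaged DNA or chromatin assembled outside S phase. The RNA here was amplified with oligo(dT) and random primers, so transcripts with and without a tail could both be copied.

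KO and WT arrays had medians of 5.70 to 5.77, and their number limits the precision. Over probe sets, which are no independent replicates, a pair of KO arrays correlated at 0.986 to 0.995 (Pearson), a pair of WT arrays at 0.994 to 0.996, and a KO array with a WT array at 0.94 to 0.965. The 18 hybridization control probe sets averaged 9.85 ± 0.06 in KO and 10.21 ± 0.10 in WT (SD, n = 3 each). The ribosomal 18S controls stood at 7.86, 9.15 and 9.19 in KO replicates 1, 2 and 3, against 9.66, 9.47 and 9.51 in WT, so KO replicate 1 stood apart. The Actb control signal at the 3' end exceeded that at the 5' end by 0.36 ± 0.04 in KO and 0.20 ± 0.03 in WT (SD, n = 3 each), and that of Gapdh by 0.18, -0.07 and -0.10 in KO arrays and -0.18, -0.17 and -0.15 in WT arrays. Both were higher in every KO array, and their part in the results was not tested. All 11 measured T cell markers, among them the receptor chains Cd3d and Cd3e, were lower in KO (limma adjusted p below 0.05), against 18.6% of all genes. Their array means were 9.25 to 10.68 in KO and 12.05 to 12.07 in WT. In bulk samples, fewer cells of a type and less RNA per cell cannot be told apart.

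Most replication-dependent histone genes with a probe set of their own were higher in KO. With each gene taken at its probe set of highest mean, 6 of 9 rose and 0 fell (limma, adjusted p below 0.05 over all 45037 probe sets), while 18.6% of all 18193 genes rose and 18.6% fell. Their median log2 difference, KO minus WT, was 0.97, against -0.06 over all genes. In the same 6 genes all KO values exceeded all WT values, which held for 24.1% of all genes, whereas the opposite order, seen in none of the 9, held for 29.7%. Of the 9 variant genes H2ax and H2az1 rose, H1f6 fell and 6 were not called, with a median log2 difference of 0.17. The difference between the histone classes was not tested. With arrays scaled by the hybridization controls, which adds the same amount to every difference, 7 of 9 replication-dependent genes and 6 of 9 variants rose. Of all 45037 probe sets 17309 then rose and 2337 fell, so that 88.1% of all called probe sets were higher in place of 47.2%.

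**Figure D1:**
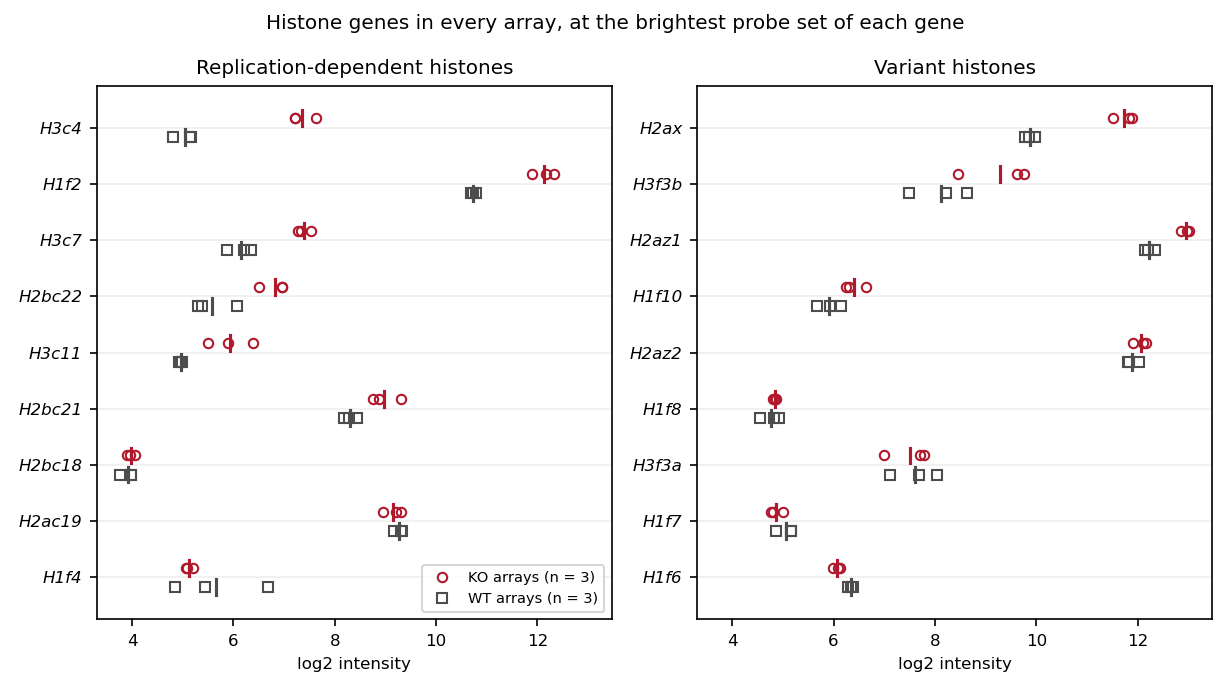
log2 intensity (horizontal axis) of each histone gene in the 3 KO arrays (red circles) and the 3 WT arrays (grey squares), with vertical bars at the group means, genes ordered by their difference. The groups are apart for 6 replication-dependent genes, and H2ax and H2az1 stand furthest from overlap among the variants.

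Linker histones of the H1 family bind the DNA between nucleosomes. H1f2, a somatic linker histone (GRCm38.p6, chr13:23738807-23739531), had log2 intensities of 12.32, 11.89 and 12.17 in KO arrays, against 10.78, 10.74 and 10.69 in WT arrays. The groups were well apart, and H1f2 rose 2.62-fold (log2 difference 1.39 ± 0.12, SE, n = 3 per group; limma adjusted p = 0.00022). A further probe set of H1f2 rose by 1.71 ± 0.19 (limma adjusted p = 0.00059). Its dimmest probe set read the other way, with 5.71 ± 0.05 in KO and 6.04 ± 0.01 in WT (SD, n = 3 each; limma adjusted p = 0.018), a call lost without WT replicate 1 (adjusted p = 0.053), WT replicate 2 (0.059) or KO replicate 3 (0.063), and with a difference of 0.04 under hybridization-control scaling.

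H1f4 (chr13:23621777-23622558) encodes another somatic linker histone of the same cluster. It read 5.06, 5.08 and 5.19 in KO arrays and 4.85, 6.67 and 5.44 in WT arrays. The WT values spread on both sides of the KO values, and the difference of -0.54 ± 0.41 was not called (limma adjusted p = 0.37). It was -0.03 without WT replicate 2 and -0.94 without WT replicate 1. H1f6 (chr13:23695811-23696545), the linker histone of spermatocytes, lies in the same cluster and is counted here with the variants. It read 5.98, 6.09 and 6.13 in KO arrays and 6.35, 6.39 and 6.28 in WT arrays. KO lay below WT in every array, and H1f6 fell by 0.28 ± 0.09 on the log2 scale (limma adjusted p = 0.046), a call lost when any of the 6 arrays was left out (adjusted p from 0.064 to 0.14) and with a difference of 0.09 under hybridization-control scaling.

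The 130 bases before the RefSeq start (GRCm38.p6) of these 3 linker histone genes are shown because the genes lie in 1 cluster and each carry an AC box and a CCAAT box, while H1f2 rose, H1f6 fell and H1f4 was not called. Capitals mark the AC box of H1 promoters (AAACACAA), the CCAAT box (CCAAT), the TATA box (TATAAA) and the octamer of H2B promoters (ATTTGCAT), searched on both strands, with positions counted backwards from the base before the start, at -1.
H1f2, rose in KO, chr13:23738677-23738806, plus strand: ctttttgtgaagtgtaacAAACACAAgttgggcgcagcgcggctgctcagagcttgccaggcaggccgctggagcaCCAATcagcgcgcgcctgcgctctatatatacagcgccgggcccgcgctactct
H1f4, not called, chr13:23622559-23622688, minus strand: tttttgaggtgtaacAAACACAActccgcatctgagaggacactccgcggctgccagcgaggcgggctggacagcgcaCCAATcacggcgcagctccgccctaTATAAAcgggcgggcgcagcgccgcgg
H1f6, fell in KO, chr13:23695681-23695810, plus strand: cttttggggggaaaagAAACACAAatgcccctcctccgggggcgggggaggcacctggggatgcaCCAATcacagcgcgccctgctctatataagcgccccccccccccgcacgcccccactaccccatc
The AC box began at -112 in H1f2, -115 in H1f4 and -114 in H1f6, followed in each gene by 1 CCAAT box, which began at -54, -52 and -65 in that order. H1f4 also matched the letters TATAAA at -27, and the matches did not overlap. Only those exact letters were searched, so similar runs of T and A in the H1f2 and H1f6 sequences are unmarked. H1f4 is thus not shown to differ from them in having a TATA box. Of the 32851 RefSeq promoters of this length (250 bases before to 50 after a start), 1.93% held the AC box, 37.4% the CCAAT box and 13.6% the TATA box and 1.74% the octamer on either strand. A match is a description of letters and does not show that a factor binds there.

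The core histones H2A and H2B form the dimers on the outer side of the nucleosome. H2ac19, an H2A gene (chr3:96239779-96240374), read 9.30, 8.95 and 9.21 in KO arrays and 9.17, 9.31 and 9.32 in WT arrays. These values overlapped, and the difference of -0.11 ± 0.12 was not called (limma adjusted p = 0.51). Its other probe set differed by -0.20 (adjusted p = 0.38).

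H2bc22, an H2B gene (chr13:21787483-21801561), read 6.51, 6.96 and 6.97 in KO arrays and 5.38, 6.07 and 5.30 in WT arrays. KO was above WT in every array, and H2bc22 rose 2.34-fold (log2 difference 1.23 ± 0.23; limma adjusted p = 0.0059). Its probe set has the suffix _x_at, so related H2B transcripts can bind it. H2bc21, an H2B gene on chromosome 3 (chr3:96221072-96223738) whose human counterpart also gives polyadenylated mRNA, read 8.88, 9.30 and 8.76 in KO arrays and 8.19, 8.29 and 8.44 in WT arrays. It rose 1.60-fold (0.67 ± 0.15; limma adjusted p = 0.015), a call lost without WT replicate 1 (adjusted p = 0.06) or WT replicate 2 (0.054). Its other probe set rose by 0.68 ± 0.16 (adjusted p = 0.018), likewise lost without WT replicate 1 (0.071) or 2 (0.06). H2bc18 (chr3:96269700-96270192) was dim, with 3.90, 4.07 and 3.96 in KO arrays and 3.98, 3.77 and 3.98 in WT arrays, and was not called (difference 0.07; limma adjusted p = 0.65).

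Histone H3 forms, with H4, the centre of the nucleosome, and 3 replication-dependent H3 genes had probe sets of their own. H3c4 (chr13:23575763-23576266) read 7.21, 7.22 and 7.62 in KO arrays, against 5.14, 5.16 and 4.81 in WT arrays. It had the largest difference of the 18 genes, a 4.97-fold rise (log2 difference 2.31 ± 0.15; limma adjusted p = 7.4e-05). H3c7 (chr13:23544052-23544954) read 7.53, 7.28 and 7.33 in KO arrays and 5.88, 6.35 and 6.22 in WT arrays. H3c7 rose 2.35-fold (1.23 ± 0.14; limma adjusted p = 0.00068). H3c11 (chr13:21782915-21783397) read 5.90, 5.49 and 6.38 in KO arrays and 4.98, 4.93 and 4.96 in WT arrays. The KO arrays of H3c11 spread more widely than the WT arrays but lay above all of them, a 1.95-fold rise (0.97 ± 0.20; limma adjusted p = 0.011).

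Promoters of replication-dependent core histone genes that rose are shown with the same motifs in capitals.
H3c4, rose in KO, chr13:23575633-23575762, plus strand: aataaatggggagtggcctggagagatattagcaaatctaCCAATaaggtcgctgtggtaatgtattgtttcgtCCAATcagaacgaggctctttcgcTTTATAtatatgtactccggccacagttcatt
H3c11, rose in KO, chr13:21783398-21783527, minus strand: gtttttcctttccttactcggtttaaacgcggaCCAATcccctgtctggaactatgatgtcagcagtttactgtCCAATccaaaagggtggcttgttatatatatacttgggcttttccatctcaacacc
H2bc22, rose in KO, chr13:21787358-21787487, plus strand: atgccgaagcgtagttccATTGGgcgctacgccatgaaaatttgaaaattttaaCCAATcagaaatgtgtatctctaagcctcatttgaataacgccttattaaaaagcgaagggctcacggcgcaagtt
H3c4 and H3c11 each carried a CCAAT box at -56 and a further one, at -90 in H3c4 and -97 in H3c11. The letters TATAAA matched in H3c4 at -32 on the opposite strand, within a longer run of A and T. H2bc22 had CCAAT boxes at -76 and, on the opposite strand, at -112. The promoter starts used for H2bc22 and H3f3b lie inside the gene coordinates given in the text. Positions in these genes therefore count from another start than the outer end of those coordinates. The CCAAT box was found in 7 of 7 replication-dependent genes with a promoter in the table and in 6 of 8 variants, among which H1f7 and H1f10 had none. The letters TATAAA were found on either strand in 4 of 7 replication-dependent genes and 1 of 8 variants over the whole window. In the printed sequences they lay at -27 in H1f4 and -32 in H3c4. Those of H3c11 and H2bc22 lay further upstream, at -147 and -212, and the variant was H3f3b, at -27. Only exact matches count, so the run of A and T near the start of H3c11 does not, and these are not counts of TATA boxes. The AC box was found in 2 of 7 replication-dependent genes and in 2 of 8 variants, H1f6 and H3f3a (at -182 on the opposite strand). The octamer was found in 1 gene of each class, H2bc18 and H3f3b. No promoter was listed for H2bc21, H3c7 and H2ax.

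Variants of H2A replace the canonical protein at particular places. H2ax (chr9:44334715-44336077), whose protein is phosphorylated around DNA breaks and whose mRNA exists with a stem-loop and with a poly(A) tail, read 11.82, 11.89 and 11.51 in KO arrays, against 9.98, 9.77 and 9.86 in WT arrays. It rose 3.65-fold, the largest difference among variants (log2 difference 1.87 ± 0.12; limma adjusted p = 7.9e-05). H2az1, which encodes the H2A.Z protein found at promoters (chr3:137864487-137866922), read 13.01, 12.98 and 12.86 in KO arrays and 12.21, 12.15 and 12.35 in WT arrays. The groups did not overlap and H2az1 rose 1.64-fold (0.71 ± 0.09; limma adjusted p = 0.0013). Its other probe set rose by 0.58 ± 0.10 (adjusted p = 0.0044). H2az2, its close paralogue (chr11:6427226-6444511), read 12.11, 12.17 and 11.90 in KO arrays and 11.81, 11.84 and 12.02 in WT arrays. The H2az2 values overlapped and were not called (difference 0.17 ± 0.11; limma adjusted p = 0.28), nor were those of its other probe set (0.34 ± 0.15; adjusted p = 0.13). The promoter of H2az1 is shown as that of a variant that rose, and it held CCAAT boxes on both strands and no other motif searched.
H2az1, rose in KO, chr3:137864357-137864486, plus strand: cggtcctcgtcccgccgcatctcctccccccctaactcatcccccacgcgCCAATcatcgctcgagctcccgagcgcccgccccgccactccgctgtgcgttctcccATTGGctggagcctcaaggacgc

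H3f3a and H3f3b encode the same protein, the H3 variant that is deposited outside S phase. H3f3b (chr11:116021961-116026039) read 9.63, 8.46 and 9.76 in KO arrays and 8.21, 8.62 and 7.50 in WT arrays. KO replicate 2 lay within the WT range, and the difference of 1.17 ± 0.40 was not called (limma adjusted p = 0.065), whereas without that array it was 1.58 (adjusted p = 0.0049). H3f3a (chr1:180802560-180813605) read 7.79, 6.99 and 7.71 in KO arrays and 7.69, 8.03 and 7.11 in WT arrays, with a difference of -0.11 ± 0.28 (limma adjusted p = 0.8). KO and WT overlapped in H3f3a, and its sign turned without WT replicate 2 or KO replicate 2.

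The remaining variants are linker histones. H1f10, a somatic one (chr6:87980421-87981482), read 6.25, 6.64 and 6.31 in KO arrays and 6.14, 5.94 and 5.67 in WT arrays. Each KO array was above each WT array, but the difference of 0.48 ± 0.15 was not called (limma adjusted p = 0.053). It was called without WT replicate 1 (0.59, limma adjusted p = 0.045), with median centring (0.043) and with hybridization-control scaling (0.0021). The filter on dim probe sets and averaging over each gene's probe sets, of which H1f10 has 1, kept the difference at 0.48. Both adjusted over fewer tests, and H1f10 was then called (limma adjusted p = 0.04 in both). H1f7, of spermatids (chr15:98255982-98257307), read 4.81, 4.999 and 4.76 in KO arrays and 5.15, 4.86 and 5.15 in WT arrays (difference -0.20; limma adjusted p = 0.25), and its dimmer probe set 3.84, 3.84 and 3.94 in KO arrays, all below 3.94, 4.16 and 4.16 in WT arrays and not called (-0.21; adjusted p = 0.14). H1f8, of oocytes (chr6:115944931-115950242), read 4.84, 4.81 and 4.86 in KO arrays and 4.92, 4.81 and 4.54 in WT arrays (0.08; adjusted p = 0.65). The probe set of H1f8 and the brighter one of H1f7 overlapped between the groups. These and the dimmer one of H1f7 lay below the median mean level of all probe sets, 5.76.

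Many histone transcripts are so alike that the annotation assigns a probe set to several genes at once. These shared probe sets are not members, and they are given because they hold most of the H2A, H2B and H4 genes. Of 17 probe sets shared by replication-dependent genes of 1 family, 9 rose and 0 fell, with a median log2 difference of 0.78, while 13.9% of all 45037 probe sets rose and 15.5% fell. Of the 25 member probe sets 11 rose and 2 fell, while 29.4% of all probe sets changed in either direction. All KO values exceeded all WT values in 12 of the 25, against 18.5% of all probe sets, and lay below them in 3, against 27.4%. A probe set shared by 3 H2B genes read 11.31, 11.39 and 11.04 in KO arrays, against 8.43, 8.12 and 8.56 in WT arrays. This was the largest difference among the 17, 7.35-fold (2.88 ± 0.14; limma adjusted p = 3.3e-05). Of 2 further probe sets assigned to the same 3 genes neither was called (differences 0.05 and -0.01), and both were dim.

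A probe set shared by 10 H2A genes read 13.90, 14.02 and 13.88 in KO arrays and 12.85, 12.71 and 12.67 in WT arrays. It rose 2.28-fold (1.19 ± 0.09; limma adjusted p = 0.00012). The other shared H2A probe set, of H2ac19 and H2ac18, was dim, with 5.44, 5.46 and 5.22 in KO arrays and 4.52, 4.25 and 4.75 in WT arrays. It rose 1.82-fold (0.86 ± 0.14; limma adjusted p = 0.0036), while neither probe set of H2ac19 alone was called. H4, which had no member, was covered by 5 probe sets shared by 13 genes, of which 3 rose. The H4 probe set that rose most read 8.99, 9.65 and 9.13 in KO arrays and 7.13, 7.38 and 7.63 in WT arrays, a 3.67-fold rise (1.88 ± 0.20; limma adjusted p = 0.00047). The brightest H4 probe set read 10.35, 10.52 and 10.45 in KO arrays and 9.41, 10.49 and 9.66 in WT arrays and was not called (0.59; adjusted p = 0.13).

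WT replicate 2 was the highest WT array in that H4 probe set. It was so too in the brightest H2B probe set, shared by 11 genes, which read 11.73, 11.75 and 11.76 in KO arrays and 9.61, 10.44 and 9.86 in WT arrays and rose 3.44-fold (1.78 ± 0.20; limma adjusted p = 6e-04). The brightest H3 probe set, shared by 12 genes, read 9.70, 9.78 and 9.79 in KO arrays and 8.39, 9.57 and 8.78 in WT arrays and was not called (0.84; limma adjusted p = 0.052). Without WT replicate 2 the H3 and H4 probe sets were called (1.17 with adjusted p = 0.003, and 0.91 with adjusted p = 0.0045). Over all 17 probe sets WT replicate 2 was the highest WT array in 7, over the 9 member genes in 4, and over all 45037 probe sets in 14589. Of 5 H3 probe sets 1 rose, by 0.78 ± 0.20 (limma adjusted p = 0.024), a call kept without KO replicate 2 or WT replicate 1 and lost without each of the other 4 arrays (adjusted p from 0.061 to 0.086).

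Variants were covered by shared probe sets as well. Both probe sets shared by H2A.Z and a predicted gene rose, by 0.49 ± 0.08 and 0.64 ± 0.13 (limma adjusted p = 0.0033 and 0.0091). Of 5 probe sets shared by the H3f3 genes and predicted genes, 1 rose by 0.84 ± 0.09 (adjusted p = 0.00053) and the other 4 differed by 0.04 to 0.21 without a call. These 5 were brighter, with WT means of 12.23 to 13.38, than the probe sets of H3f3b and H3f3a alone, with WT means of 8.11 and 7.61. Outside the rule were 6 further histone genes, of which Cenpa and Macroh2a1 rose at their brightest probe set. That of Cenpa, the H3 variant of centromeres, rose by 1.36 ± 0.16 (adjusted p = 0.00074). That of Macroh2a1, a large H2A variant of silent chromatin, rose by 0.72 ± 0.11 (adjusted p = 0.0023). The brightest probe sets of H2aj, H2aw, Macroh2a2 and Macroh2a3 were not called, with differences of -0.22, 0.12, 0.20 and 0.03. A dimmer probe set rose for H2aw, by 0.57 (limma adjusted p = 0.0095), and for H2aj, by 0.33 (0.026). The H2aj call was lost when any array except KO replicate 1 was left out (adjusted p from 0.062 to 0.079). The remaining probe sets of these genes were not called, with differences of -0.11 for H2aj, -0.06 for Macroh2a3 and 0.24 and 0.31 for Cenpa.

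**Figure D2:**
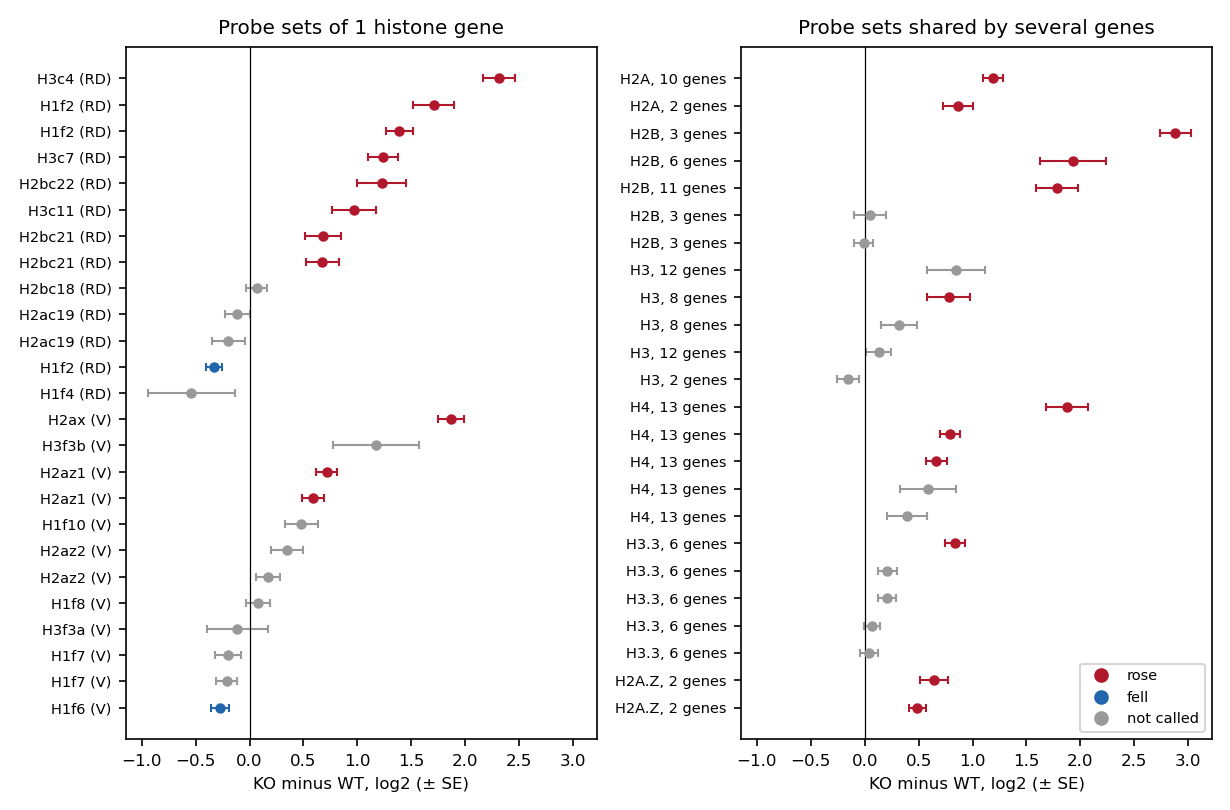
KO minus WT log2 difference with its moderated SE (horizontal axis) for the 25 member probe sets (left; RD, replication-dependent; V, variant) and 24 probe sets shared by several genes (right, named by histone family and number of genes), coloured by the limma call. Rises up to 2.31 among members and 2.88 among shared probe sets contrast with falls by 0.28 and 0.33.

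The genes that transcribe, process or degrade replication-dependent histone mRNA moved in both directions. Of 21 measured genes 4 rose and 6 fell, against 18.6% of all genes in each direction, with a median log2 difference of 0.12 against -0.06 over all genes. The rises were thus near the share over all genes. The largest falls were of Xrn1, Tut4 (-0.64) and Lsm1 (-0.50), which act in mRNA decay, and the smaller ones of Lsm10, Cpsf3 and Hinfp. Other decay genes of the list were not called. Eri1 and Upf1 differed by 0.33 and 0.31 and Tut7 by -0.24 (limma adjusted p = 0.1, 0.061 and 0.058). The 6 falls came to 4 without WT replicate 1, 3 without WT replicate 2 or KO replicate 1 and 2 without WT replicate 3 or KO replicate 3. Slbp, the stem-loop binding protein, read 12.14, 12.44 and 12.13 in KO arrays and 11.50, 11.44 and 11.42 in WT arrays. Slbp rose 1.72-fold (0.78 ± 0.11; limma adjusted p = 0.0016). The other rises were of Ncbp2, a cap-binding subunit, by 0.70 ± 0.12, Cpsf2, a subunit of the cleavage complex, by 0.68 ± 0.14, and Srrt, a partner of the cap-binding complex, by 0.57 ± 0.11. Xrn1, the exonuclease that degrades decapped mRNA, read 7.87, 7.96 and 8.13 in KO arrays and 8.71, 8.84 and 8.76 in WT arrays, so that it fell by 0.78 ± 0.10 (limma adjusted p = 0.001). Npat, the coactivator of histone gene transcription, named after its values were seen, differed by 0.33 ± 0.13 and was not called (adjusted p = 0.09). Under hybridization-control scaling 13 of the 21 rose and 1 fell, while 17309 of all 45037 probe sets rose and 2337 fell.

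Histone chaperones carry new histones to DNA. Of 26 measured chaperone and deposition genes 12 rose and 2 fell, against 18.6% of all genes in each direction, with a median log2 difference of 0.22. Asf1b, an H3 and H4 chaperone of dividing cells, rose by 1.42 ± 0.13 (limma adjusted p = 0.00026). Chaf1b, a subunit of the complex that loads H3 and H4 behind the replication fork, rose by 1.14 ± 0.17. Hat1, which acetylates new H4, rose by 1.00 ± 0.12, and Mms22l, which acts at newly replicated DNA, by 0.92 ± 0.15. Daxx, a chaperone of the variant H3 made by the H3f3 genes, read 9.32, 9.59 and 9.50 in KO arrays and 10.15, 10.08 and 10.16 in WT arrays. Daxx fell by 0.66 ± 0.10 (limma adjusted p = 0.0021), with a difference of -0.30 that was not called under hybridization-control scaling (adjusted p = 0.059). Ubn1, of the complex that deposits the same variant, fell by 0.28 ± 0.08 (limma adjusted p = 0.044), a call lost without any 1 of the 6 arrays (adjusted p from 0.056 to 0.14) and with a difference of 0.09 under that scaling. Scaling to those controls brought 19 rises and 0 falls in this list, against 17309 rises and 2337 falls over all 45037 probe sets.

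**Figure D3:**
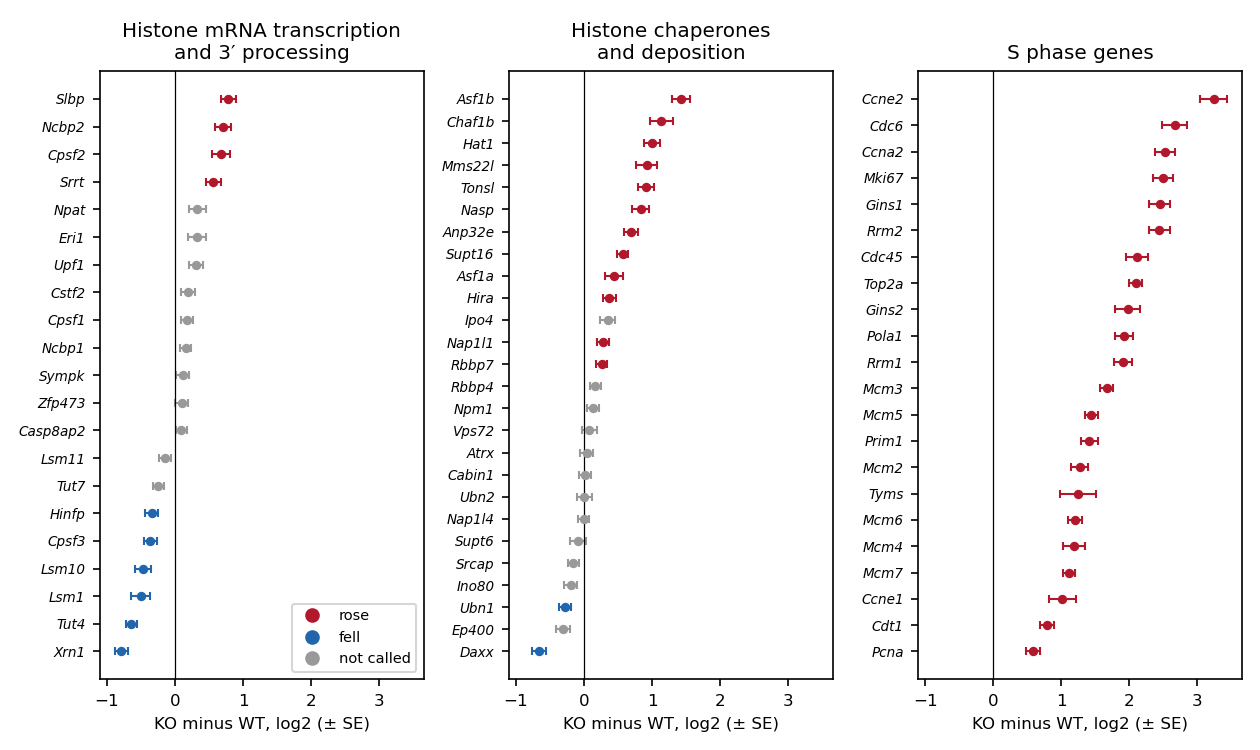
KO minus WT log2 difference with its moderated SE (horizontal axis) for the measured genes of 3 lists, coloured by the limma call. Genes of histone mRNA transcription, processing and decay lie on both sides of 0, from -0.78 to 0.78. S phase genes lie between 0.58 and 3.24.

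S phase genes of other kinds were higher in the same arrays. All 22 measured S phase genes rose, against 18.6% of all genes, with a median log2 difference of 1.79. Ccne2, a cyclin of S phase entry, rose by 3.24 ± 0.20 and Cdc6, which loads the replicative helicase, by 2.67 ± 0.18. Ccna2, a cyclin of S phase and G2, rose by 2.53 ± 0.15 and the proliferation marker Mki67 by 2.50 ± 0.14. The array mean of the 22 genes was 11.16, 11.51 and 11.08 in KO replicates 1 to 3 and 9.48, 9.41 and 9.58 in WT replicates 1 to 3.

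The mean over the 9 replication-dependent genes was 7.40, 7.36 and 7.51 in KO arrays and 6.48, 6.81 and 6.58 in WT arrays. KO replicate 2 had the highest S phase mean of the KO arrays and the lowest replication-dependent mean, although these histone means lay close together. The brightest shared probe set of each family did not share that order. KO replicate 2 was the highest KO array for H2A and H4, KO replicate 3 for H2B and H3. In none of them was KO replicate 2 the lowest. The 6 somatic variants averaged 9.99 ± 0.12 in KO and 9.27 ± 0.16 in WT (SD, n = 3 each), and the 3 germ line linker histones 5.25 ± 0.04 in KO and 5.38 ± 0.08 in WT.

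Markers of other blood cells moved with genotype in these arrays, and their part in the histone differences was not tested. Of 12 neutrophil markers 11 rose, while 18.6% of all genes rose and 18.6% fell. Their array means were 10.73 to 13.21 in KO and 6.18 to 7.30 in WT. All 10 markers of mast cells, basophils and eosinophils rose, with means of 10.70 ± 0.28 in KO and 6.30 ± 0.07 in WT (SD, n = 3 each). Of 9 erythroid markers 7 rose and 1 fell, with means of 8.52 to 9.45 in KO and 6.37 to 6.75 in WT, and the globin genes Hba-a1 and Hba-a2 were dim at 4.52 and 4.68 in KO and 4.55 and 5.18 in WT. Of 8 monocyte and macrophage markers 7 rose, with means of 8.92 to 10.06 in KO and 5.88 to 6.28 in WT. Of 7 B cell markers 1 rose, near the share over all genes, with means of 6.67 to 7.72 in KO and 6.34 to 6.83 in WT.

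**Figure D4:**
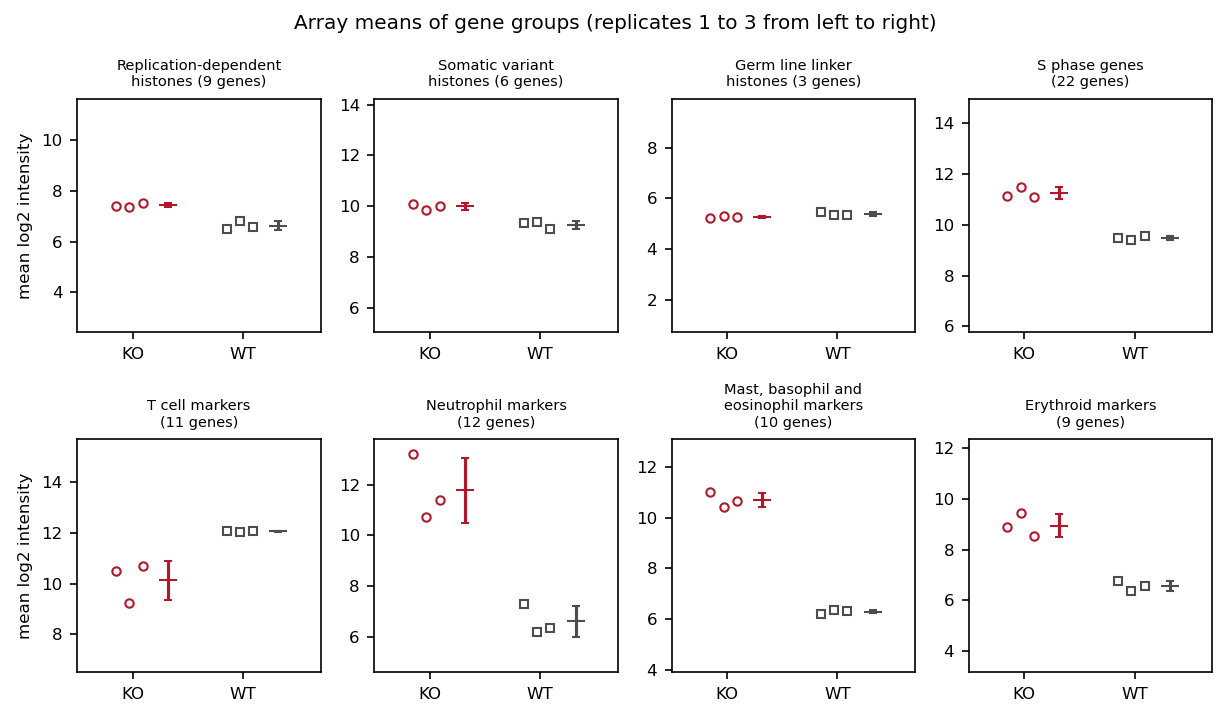
Mean log2 intensity (vertical axis, the same span of values in each panel) of gene groups in KO arrays (red circles) and WT arrays (grey squares), with the group mean and SD beside them. Replication-dependent histones average 7.42 in KO and 6.62 in WT, a smaller gap than that of the S phase genes, 11.25 and 9.49, and of the neutrophil markers, 11.78 and 6.60. Some of the 9 histone probe sets are dim and may understate a difference.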

How the data were processed

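RMA (version not given) made the deposited log2 intensities, per the submitters' processing notes. They entered the fit unchanged and unfiltered. Without detection calls, a dim probe set may sit at background and then understates a difference. The table lists 45101 probe sets. Array controls (64) were set aside, which left 45037 for the test. The platform annotation gave 1 gene for 34945, several for 932 and did not list 9160. Coordinates are those of GRCm38.p6, found through the Entrez ID for all 25 members, of which 5 carry a suffix (_s_at, _x_at) for probes that may also bind related transcripts.

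With R 4.3.3 and limma 3.58.1, genotype was fitted over all probe sets by lmFit and eBayes, with two-sided p values and Benjamini-Hochberg adjustment across the whole table. Rose, fell and called mean that the adjusted p was under 0.05. Each difference is KO minus WT, given with limma's moderated SE. The script was tested on simulated data. Replicates are separate mice per the labels.

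Members, classes and gene lists were chosen with earlier results of these data known, and the lists and the division into classes were written from general knowledge. Values in every array are given for the variant genes and, per replication-dependent family, for the brightest gene and up to 4 called genes. H1f4 and H2bc18 are given beyond that rule. Of each pathway list up to 4 called genes with the largest differences are named, and all called genes of a direction with 5 or fewer. Npat, Tut4, Lsm1, Lsm10, Cpsf3, Hinfp, Eri1, Upf1 and Tut7 are named beyond it. Alternatives were a filter on dim probe sets, another normalization, centring or scaling, another variance model, array weights, a replicate block, a looser threshold (0.10), a tested change of at least 1.5-fold, each array left out, averaging all probe sets of each gene, and dropping those with the suffixes above.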

Additional observations from a re-analysis of the deposited data

How the results depend on the processing

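The rise of replication-dependent histone genes (6 of 9) stayed at 5 to 6 when each array was left out, and came to 3 with a minimum change of 1.5-fold. Variants that rose numbered 2, 2 to 3 without 1 array, 1 with that minimum change, 4 at an adjusted p below 0.10 and 6 under hybridization-control scaling. The 1 variant that fell was not called (0 fell) without any 1 array, with median centring, hybridization-control scaling, trend and robust fitting, the minimum change or the replicate block, where H1f6 had an adjusted p of 0.12. The deviations of same-numbered KO and WT arrays from their group means correlated at 0.10, -0.24 and -0.20. With 3 arrays per group this cannot decide whether the numbers pair littermates, and the labels state no pairing. With the replicate block 1 chaperone gene and 3 genes of histone mRNA transcription, processing and decay fell. Of chaperone genes 12 rose, 8 to 10 without 1 array, 19 under hybridization-control scaling and 1 with the minimum change. Chaperone genes that fell numbered 2, 1 without any 1 array, 4 after a repeated quantile normalization, 1 after median centring, and 0 under the control scaling and with the minimum change. Of the genes of histone mRNA transcription, processing and decay 4 rose and 6 fell. These became 4 to 5 and 2 to 5 without 1 array, 13 and 1 under the control scaling, and 0 and 0 with the minimum change. S phase genes that rose ranged from 18 to 22 of 22.

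Of 300 alternative values for the 18 genes, 263 kept their direction and their side of the threshold, 16 lost the call, 13 gained one and 8 turned sign, all 8 in genes that were not called or, for H1f6, at the threshold. Under hybridization-control scaling, which moves the median of all differences from -0.08 to 0.29, the turned values were 0.25 for H2ac19 and H3f3a, 0.091 for H1f6 and 0.166 for H1f7. The others were 0.10 for H3f3a and -0.004 for H2bc18 without WT replicate 2, 0.14 for H3f3a without KO replicate 2, and -0.029 for H1f8 without WT replicate 3. Leaving out each array gave -0.362 to 0.14 for H3f3a, -0.004 to 0.104 for H2bc18 and -0.029 to 0.158 for H1f8. The cause was not tested. Probe sets near the background intensity, such as H2bc18, cannot show small differences.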
